A study of Mus musculus with 10 samples.

Results

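The genes described here are 10 genes of the mouse DNA methylation machinery: the methyltransferases Dnmt1, Dnmt3a and Dnmt3b and their cofactor Dnmt3l, the enzymes of demethylation Tet1, Tet2, Tet3 and Tdg, the partner protein Uhrf1 and the reader Mbd2. What was measured is the methylation of these genes themselves, as DNA, and neither their expression nor the activity of their products was measured in the data used here. Windows of 1000 bp, placed every 500 bp, were taken when they overlapped the RefSeq span of a gene on GRCm38 or its flanks of 5 kb. The rule found 357 of the 446336 deposited windows, and 348 of the 421759 windows with at least 20 CpG calls in every mouse, which are described below. Dnmt3a had 67 of them, Tet3 54, Tet2 43, Tet1 37, Mbd2 30, Dnmt1 27, Dnmt3b 26, Dnmt3l 26, Uhrf1 20 and Tdg 18.

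DNA methylation of lung tissue from female BALB/c mice, 8 weeks old at purchase, was profiled by Methyl-seq, in which bisulfite turns unmethylated cytosines into uracils in DNA captured with the SureSelect design. 3 groups were compared: saline (control, n = 3), OVA (asthma-induced, n = 3) and DSE (n = 4, labelled Herb), which had also received an extract of Descurainia sophia seeds; the study held 7 mice per group, and the labels number the mice sequenced. The OVA mice were sensitized by injection with 50 µg ovalbumin in alum on days 0 and 7 and challenged intranasally with 25 µg ovalbumin for 4 days from day 12; the DSE mice were treated likewise and given 200 mg/kg DSE by mouth from day 9 to day 15. Each library held whole lung tissue, so a shift in the mixture of cells and a change within cells cannot be told apart in any of the values below.

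DNA methyltransferases place a methyl group on the cytosine of CpG dinucleotides: Dnmt1 copies the pattern of the parental strand after replication, guided by Uhrf1, which binds hemimethylated CpGs, and Dnmt3a and Dnmt3b methylate new sites, a reaction stimulated by the catalytically inactive Dnmt3l. The Tet dioxygenases oxidize 5-methylcytosine, and the glycosylase Tdg excises the more oxidized forms, after which repair restores an unmodified cytosine. Mbd2 binds methylated CpGs and recruits the NuRD repressor complex. Bisulfite does not separate 5-methylcytosine from 5-hydroxymethylcytosine, so a methylation level here is the sum of both. In mammalian genes, CpG-rich start sites are usually unmethylated and gene bodies methylated, and the methylation at a start site, at its borders and within an intron can differ from each other over short distances.

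The sequences on which the results turn are shown first, on GRCm38.p6 and 5′ to 3′ on the gene's strand, in lower case with every CpG in capitals. The first 5 are the 250 bases before a RefSeq start site. They were chosen because their CpG number and the methylation of the windows at or near them differ. They are those of Tet2 (chr3:133544391-133544640, minus strand, 51 CpGs), Dnmt3a (chr12:3806730-3806979, plus strand, 38 CpGs), Tet1 (chr10:62887325-62887574, minus strand, 15 CpGs) and the distal and internal start sites of Dnmt3l (chr10:78042037-78042286, 5 CpGs, and chr10:78049592-78049841, 4 CpGs, both plus strand).
Tet2 promoter: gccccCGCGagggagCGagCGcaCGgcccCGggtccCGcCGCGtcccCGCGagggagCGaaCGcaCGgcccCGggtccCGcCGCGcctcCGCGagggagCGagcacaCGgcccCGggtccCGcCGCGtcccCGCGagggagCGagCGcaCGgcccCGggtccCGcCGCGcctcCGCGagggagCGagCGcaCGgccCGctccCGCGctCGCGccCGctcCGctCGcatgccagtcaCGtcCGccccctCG
Dnmt3a promoter: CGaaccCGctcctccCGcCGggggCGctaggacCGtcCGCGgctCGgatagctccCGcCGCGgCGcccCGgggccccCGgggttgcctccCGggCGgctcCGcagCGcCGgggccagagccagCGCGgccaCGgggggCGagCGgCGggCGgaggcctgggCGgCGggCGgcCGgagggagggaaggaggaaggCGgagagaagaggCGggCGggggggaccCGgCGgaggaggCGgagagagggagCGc
Tet1 promoter: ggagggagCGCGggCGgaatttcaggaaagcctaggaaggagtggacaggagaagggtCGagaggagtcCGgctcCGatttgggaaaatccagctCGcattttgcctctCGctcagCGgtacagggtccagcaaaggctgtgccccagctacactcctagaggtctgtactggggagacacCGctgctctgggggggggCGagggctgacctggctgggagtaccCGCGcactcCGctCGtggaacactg
Dnmt3l distal promoter: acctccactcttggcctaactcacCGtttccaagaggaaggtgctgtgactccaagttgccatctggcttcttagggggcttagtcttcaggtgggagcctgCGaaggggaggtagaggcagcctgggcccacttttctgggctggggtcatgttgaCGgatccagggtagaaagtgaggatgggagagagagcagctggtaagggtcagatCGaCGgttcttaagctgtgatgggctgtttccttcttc
Dnmt3l internal promoter: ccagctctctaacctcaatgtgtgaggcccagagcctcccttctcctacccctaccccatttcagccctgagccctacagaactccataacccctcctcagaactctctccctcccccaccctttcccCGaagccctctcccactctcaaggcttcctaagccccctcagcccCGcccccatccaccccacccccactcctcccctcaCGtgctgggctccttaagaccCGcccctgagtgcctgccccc
The median over 32851 RefSeq promoters of this length was 6 CpGs, and 0.067% of them held as many CpGs as that of Tet2. Of the 10 genes, 9 were matched there, with 16 promoters; Mbd2 was not. A GC box (GGGCGG on either strand) was found in 11 of these 16 promoters and in 32.7% of all promoters, and CCAAT, on either strand, in 6 of 16 and in 33.8% of all. These letters describe the stretch and do not show that a factor binds there.

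The other 4 are the most CpG-rich 250 bases of intronic windows that differed most between groups in their gene: Tet2 intron 1 (chr3:133516244-133516493, minus strand, with 6 of the 11 CpGs of its window), Dnmt3a intron 4 (chr12:3867228-3867477, plus strand, with 9 of 17), Tet1 intron 2 (chr10:62866706-62866955, minus strand, with 9 of 15) and Tdg intron 1 (chr10:82634506-82634755, plus strand, with 6 of 13).
Tet2 intron 1: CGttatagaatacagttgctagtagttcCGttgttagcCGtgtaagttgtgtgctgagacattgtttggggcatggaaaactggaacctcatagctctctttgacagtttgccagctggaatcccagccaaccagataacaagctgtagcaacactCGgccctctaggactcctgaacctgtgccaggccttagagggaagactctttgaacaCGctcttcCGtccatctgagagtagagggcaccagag
Dnmt3a intron 4: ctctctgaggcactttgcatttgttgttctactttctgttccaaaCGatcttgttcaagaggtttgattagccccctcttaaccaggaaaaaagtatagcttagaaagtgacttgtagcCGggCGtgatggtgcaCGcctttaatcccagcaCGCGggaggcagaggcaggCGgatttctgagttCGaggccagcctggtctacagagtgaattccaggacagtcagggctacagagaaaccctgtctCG
Tet1 intron 2: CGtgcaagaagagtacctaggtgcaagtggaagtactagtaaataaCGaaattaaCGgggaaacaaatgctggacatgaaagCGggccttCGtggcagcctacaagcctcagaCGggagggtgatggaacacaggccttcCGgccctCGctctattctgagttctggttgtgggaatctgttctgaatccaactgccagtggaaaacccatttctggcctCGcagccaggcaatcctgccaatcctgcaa
Tdg intron 1: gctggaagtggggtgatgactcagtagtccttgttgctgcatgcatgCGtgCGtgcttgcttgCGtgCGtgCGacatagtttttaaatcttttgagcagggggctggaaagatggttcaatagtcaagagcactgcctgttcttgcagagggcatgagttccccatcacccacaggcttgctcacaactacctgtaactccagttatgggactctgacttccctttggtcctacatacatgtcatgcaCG
The reference marks 0 of these 250 bases as repeats in Tet2 and 3 in Tet1, but 163 bases with 7 of the 9 CpGs in Dnmt3a, and 122 bases with 2 of the 6 CpGs in Tdg. Reads from a repeat can be harder to place than reads from single-copy sequence, and the part of this in the values was not tested.

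Each mouse had 306656737 to 410836272 calls over all windows. The median number of calls per window of these genes was 341 to 500 by mouse, with a median of 423 over all mice; at that depth a level of 50% has a Wilson 95% interval of 45.4% to 54.9%, and at 20 calls of 29.9% to 70.1%, for counting error only. Mice of one group differed by more than the sampling of calls, with a mean chi-square per window of 2.64 to 3.76. A window was called a differentially methylated region (DMR) where a likelihood ratio test on the pooled calls gave a Benjamini-Hochberg adjusted p below 0.01 over all 421759 windows and the groups differed by at least 10 percentage points. That test takes calls as independent and has no term for the spread between mice, so the adjusted p of limma, fitted to the 10 mice over the same windows, is given beside it. Differences are in percentage points of the pooled calls, levels are means over mice, and introns and exons are numbered on the longest RefSeq transcript.

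In saline lung, the median level was 8.48% in the 69 windows within 1000 bp of the genes' own start sites, 86.0% in 62 exonic windows and 58.2% in 157 intronic windows. The level was below 20% in 77 windows (22.1%; 22.3% of all windows), between 20% and 80% in 189 (54.3%; 55.3% of all) and above 80% in 82 (23.6%; 22.4% of all). The median number of CpGs was 34 in the windows below 20% and 12 in those above 80%. Median levels by gene were 74.4% in Dnmt1, 74.4% in Dnmt3b, 73.6% in Dnmt3l, 71.7% in Mbd2, 69.3% in Tet1, 62.1% in Tet2, 54.0% in Tdg, 53.2% in Dnmt3a, 51.2% in Tet3 and 27.4% in Uhrf1. The Uhrf1 gene had the lowest median, and of its 20 windows 8 lay within 1000 bp of its own starts and 6 within 1000 bp of a start of Kdm4b, the neighbouring histone demethylase gene, where the lowest level of all 348 windows was found (0.417% ± 0.040, SD, n = 3). The highest was in intron 2 of Mbd2 (97.8% ± 1.6, SD, n = 3).

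**Figure D1:**
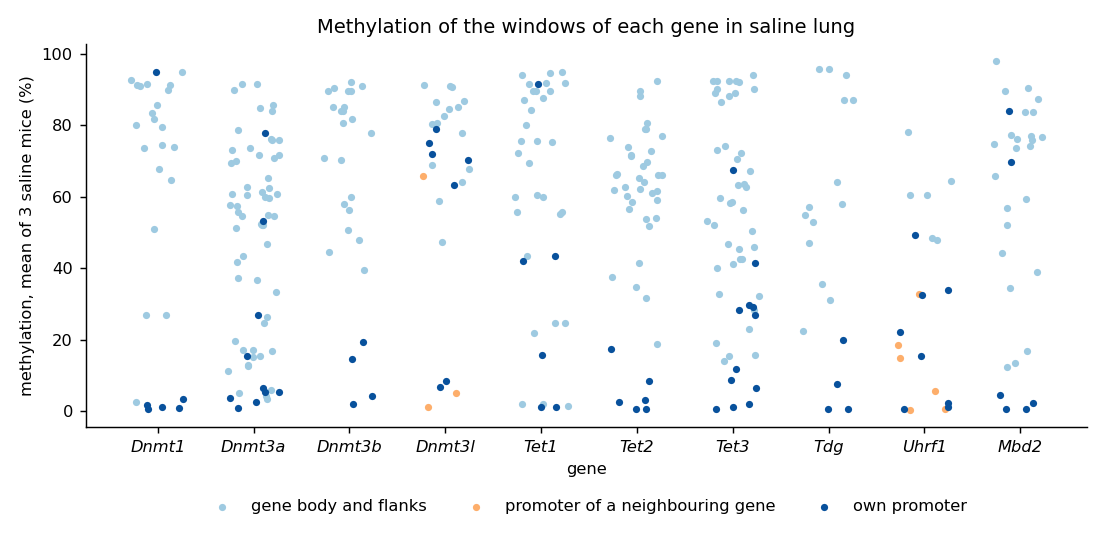
Methylation level (percent, mean of the 3 saline mice) of the windows of each gene, one point per window; dark blue points lie within 1000 bp of the gene's own start sites, orange points at starts of a neighbouring gene, and light blue points in the body and flanks. Own promoter windows reach down to about the floor of the axis in every gene but Dnmt3l, where the lowest has 6.69%.

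Outside their own promoters, most of the genes held both windows of low and windows of high methylation in saline mice. In Dnmt1 the lowest such window had 2.63%, in the downstream flank (chr9:20901501-20902500). The highest level of Dnmt1 was 94.9% with its own promoter windows counted. In Dnmt3a the level outside promoters ran from 3.51% in intron 1 to 91.5% at exon 4, and in Dnmt3b from 39.5% in intron 8 to 92.2% at exon 3. In Dnmt3l the lowest such window (1.24%) belonged to the start of Icosl, a costimulatory ligand gene in its flank, and the highest (91.3%) to intron 13. Among the Tet genes the extremes were 1.43% and 94.8% in Tet1, 18.9% and 92.3% in Tet2 and 14.1% and 93.9% in Tet3. Tdg ran from 22.4% to 95.7%, both in intron 1, Mbd2 from 12.3% in intron 3 to 97.8%, and Uhrf1 from the Kdm4b start to 78.1% in its downstream flank.

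Between OVA and saline, 15 windows in 10 separate regions were hyper methylated DMRs and 13 in 8 regions were hypo methylated. The hyper methylated windows were 4.31% of the 348 (background over all windows 4.83%) and the hypo methylated ones 3.74% (background 2.6%). OVA and saline mice were fully separate in 23 of the 28. DMRs are chosen for a large difference and no such share over all DMRs is given, so this count says nothing particular about these genes. Without OVA replicate 3, 6 windows in place of 13 were hypo methylated. Without any threshold on size, OVA mice lay wholly above saline mice in 66 windows (19.0%; background 18.0%) and wholly below in 44 (12.6%; background 9.03%). The median difference over the 348 windows was 0.53 points, against 0.73 over all windows. By limma, 4 windows were higher (background 2.25%) and 5 lower (background 1.49%) at an adjusted p below 0.05, 6 of which were DMRs; 89 windows (25.6%) had an unadjusted p below 0.05, against 22.3% of all windows. Of the 69 windows within 1000 bp of the genes' own start sites, 0 were DMRs (3.63% of all promoter windows were). In those windows limma passed only the 2 near the distal Dnmt3a start described below.

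Far fewer windows differed between DSE and OVA. In DSE vs. OVA, 0 windows were hyper methylated DMRs (background 0.888%) and 1 was hypo methylated (background 0.699%), in Tdg, and the median difference was -0.04 points (-0.03 over all windows). limma passed 2 windows, both higher and holding the same calls (background 0.348%), and 30 (8.62%) had an unadjusted p below 0.05, against 9.87% of all windows. The DSE mice lay wholly above the OVA mice in 28 windows (8.05%; background 5.67%) and wholly below in 10 (2.87%; background 4.59%). Against saline, the same control mice as above, 15 windows in 10 regions were hyper methylated in DSE (background 5.02%) and 17 in 11 regions hypo methylated (background 3.09%). limma passed 19 higher (background 4.58%) and 11 lower (background 2.68%), including 21 of the 32 DMRs. The DSE and saline mice were fully separate in 28 of the 32, again a count without a share over all DMRs. DSE lay wholly above saline in 59 windows (background 16.4%) and wholly below in 34 (background 7.86%). Over the 3 comparisons, 40 windows in 27 regions were DMRs at least once, and Dnmt1, with 27 windows, had none.

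**Figure D2:**
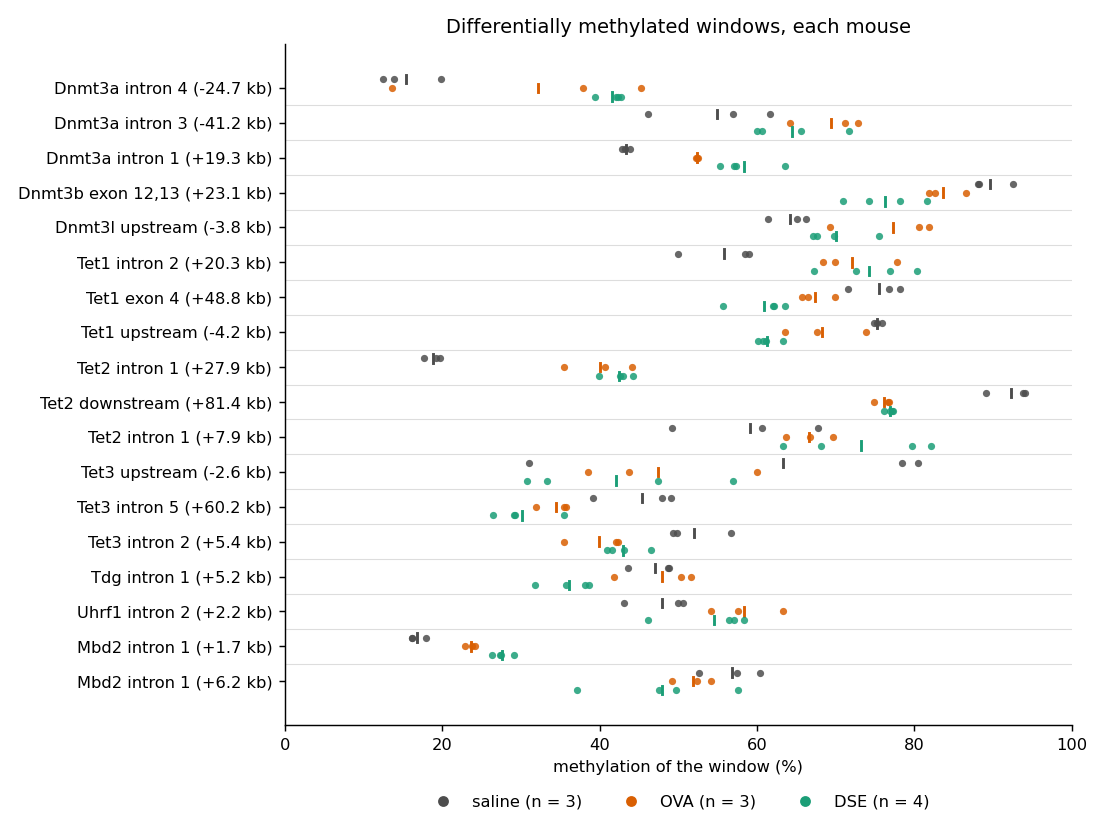
Methylation level (percent) in the leading windows of up to 3 DMR regions per gene, one point per mouse and a vertical line at the mean of each group, with the distance of the window centre from the nearest start site along the gene in kb. In the Tet2 window at +27.9 kb the OVA and DSE mice (35.5% to 44.2%) lie apart from the saline mice (17.6% to 19.7%), while in Tdg the OVA mice lie with the saline mice.

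Of the methyltransferase genes, Dnmt3a carried 7 of the 27 regions, of which 5 were hyper methylated in DSE or OVA against saline. The largest difference was in intron 4 (chr12:3866501-3867500, 81 to 293 calls), part of which is shown above. The saline mice had 13.9%, 19.8% and 12.5%, the OVA mice 13.6%, 45.2% and 37.9%, and the DSE mice 39.4%, 42.3%, 42.0% and 42.7%. OVA replicate 1 was at the level of the saline mice, whereas all DSE mice were above them. The OVA difference was 20.6 points (12.6 without OVA replicate 2), with an adjusted p of 1.71e-11 in the likelihood ratio test but 0.16 in limma; the DSE difference from saline was 25.4 points (limma adjusted p = 0.033).

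In intron 1 of Dnmt3a (chr12:3826001-3827000), the saline mice had 43.3%, 42.8% and 43.9%, the OVA mice 52.4%, 52.2% and 52.5%, and the DSE mice 57.4%, 55.3%, 57.1% and 63.5%. The 3 groups were separate, in the order saline, OVA, DSE. The difference from saline was 9.03 points in OVA, short of the DMR threshold (limma adjusted p = 0.083), and 15.3 points in DSE (limma adjusted p = 0.013), and the step from OVA to DSE was 6.32 points (limma adjusted p = 0.45). In the downstream flank (chr12:3917001-3918000), 18.7%, 16.8% and 16.3% in saline compared with 30.7%, 24.9% and 24.5% in OVA and 25.4%, 28.8%, 26.1% and 31.0% in DSE. Here both groups were above all saline mice, by 10.2 points in OVA (limma adjusted p = 0.040) and 10.7 in DSE (limma adjusted p = 0.017).

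The other 4 regions of Dnmt3a did not share a direction. In intron 3, the window at chr12:3850001-3851000 had 46.2%, 61.6% and 57.0% in saline and 64.2%, 71.2% and 72.9% in OVA, a difference of 15.6 points (10.1 without saline replicate 1, which ends the call; limma adjusted p = 0.099). DSE mice, at 60.0% to 71.7%, overlapped both, and their difference from saline of 11.0 points was 5.46 without saline replicate 1 and also not called without DSE replicate 1 or 2. Another window of intron 3 (chr12:3859501-3860500) was higher by 10.9 points in OVA and 13.2 in DSE (limma adjusted p = 0.022 for the latter), and one more (chr12:3852001-3853000) differed by -11.2 points in OVA and -10.3 in DSE. Intron 6 near the internal start site (chr12:3892501-3893500) was lower in DSE than in saline by 11.0 points (limma adjusted p = 0.062), with 48.7% to 55.6% in saline and 36.8% to 48.3% in DSE. It was the single DMR among the 69 promoter windows in DSE vs. saline (4.34% of all promoter windows were DMRs there). Leaving out 1 mouse took these 3 windows and that of the downstream flank below the 10 points in OVA or DSE. Each of the saline replicates, OVA replicates 1 and 3 and DSE replicates 3 and 4 did so in at least 1 window. The furthest values were -7.84 points for chr12:3852001-3853000 without OVA replicate 3 and 7.47 for the downstream flank without OVA replicate 1. The difference of 13.2 points was called whichever mouse was left out.

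Dnmt3b and Dnmt3l had 1 region each. At exons 12 and 13 of Dnmt3b (chr2:153672001-153673000), the saline mice had 88.0%, 92.5% and 88.2%, the OVA mice 81.8%, 86.5% and 82.6%, and the DSE mice 74.3%, 70.9%, 78.1% and 81.6%. The groups were again separate, with DSE lowest. The difference from saline was -5.99 points in OVA (limma adjusted p = 0.13) and -13.6 in DSE (limma adjusted p = 0.016). Upstream of Dnmt3l (chr10:78038001-78039000), 65.1%, 61.4% and 66.3% in saline compared with 69.3%, 80.6% and 81.9% in OVA, 11.96 points higher (9.61 without OVA replicate 3; limma adjusted p = 0.076), and with 67.1% to 75.5% in DSE. All OVA and DSE mice were above the saline mice there, but OVA and DSE overlapped.

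**Figure D3:**
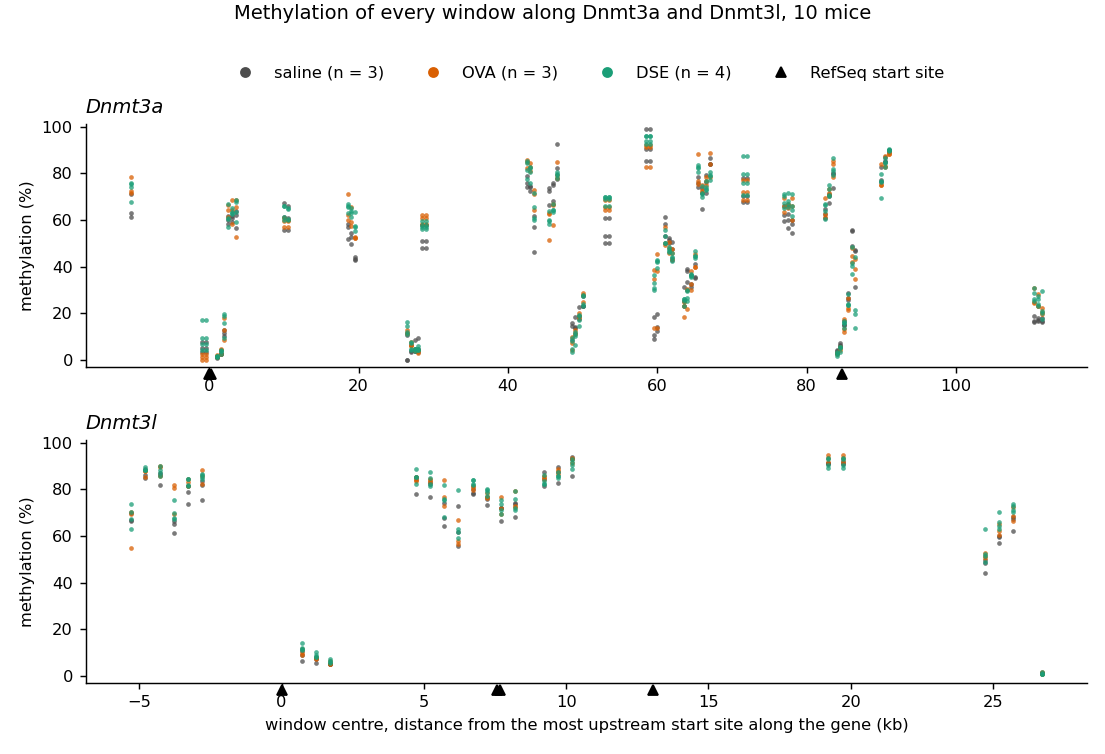
Methylation level (percent) of every window of Dnmt3a and Dnmt3l, one point per mouse, against the distance of the window centre from the most upstream start site along the gene (kb), with triangles at RefSeq start sites. The internal Dnmt3a start site lies in a window with 6.50% in saline, whereas the Dnmt3l start sites at 78049842 and 78049959 lie in a window with 75.1%. The calls near the distal Dnmt3a start site lie upstream of it.

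Among the genes of demethylation, Tet2 held the windows best separated from the spread between mice. In its intron 1 (chr3:133516001-133517000, 731 to 1215 calls, centred 27890 bp inside the start site), the saline mice had 19.7%, 17.6% and 19.2%, the OVA mice 35.5%, 40.7% and 44.0%, and the DSE mice 42.6%, 43.0%, 39.9% and 44.2%. No OVA or DSE mouse came near a saline mouse, and OVA and DSE overlapped. The difference from saline was 21.2 points in OVA (likelihood ratio adjusted p = 3.03e-53, limma adjusted p = 0.020) and 23.6 in DSE (limma adjusted p = 0.0071), while DSE and OVA differed by 2.45 points (limma adjusted p = 0.85). Downstream of Tet2 (chr3:133462501-133463500) the direction was opposite: 94.0%, 93.8% and 89.1% in saline, 76.8%, 74.9% and 76.7% in OVA, and 77.2%, 76.1%, 77.3% and 76.9% in DSE. OVA differed from saline by -16.0 points (limma adjusted p = 0.020) and DSE by -15.3 (limma adjusted p = 0.0079), with the mice of both groups between 74.9% and 77.3%.

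The other 3 regions of Tet2 also lay in intron 1. The window at chr3:133517501-133518500 was higher by 11.8 points in OVA and 10.5 in DSE, with 57.7% to 65.3% in saline, 73.3% to 74.5% in OVA and 68.6% to 79.4% in DSE, and fell below the DMR threshold without saline replicate 2 (9.74 and 8.52 points) or, for DSE, without DSE replicate 2 (8.60). That at chr3:133523501-133524500 differed by -11.1 points in OVA and was no DMR without saline replicate 2, saline replicate 3 or OVA replicate 3 (-7.97 to -9.98 points). At chr3:133536001-133537000 (59 to 128 calls), saline mice ranged from 49.2% to 67.7% and DSE mice from 63.3% to 82.1%. The groups overlapped, and the difference of 12.4 points (likelihood ratio adjusted p = 0.0022, limma adjusted p = 0.14) was lost when any of saline replicates 1 and 2 and DSE replicates 1 and 4 was left out, at 9.37 to 12.4 points.

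Tet1, a dioxygenase with a CXXC domain that binds CpG-rich DNA, had 4 regions. In intron 2 (chr10:62866501-62867500, 146 to 260 calls, shown above), the saline mice had 58.5%, 50% and 59.0%, the OVA mice 70.0%, 77.8% and 68.3%, and the DSE mice 67.2%, 80.4%, 72.6% and 76.8%. Both groups were above all saline mice, by 15.3 points in OVA (limma adjusted p = 0.070) and 17.0 in DSE (limma adjusted p = 0.028). This window borders a second unmethylated stretch of Tet1, around exon 3: the window at chr10:62864501-62865500 had 1.43% in saline, and that at chr10:62865501-62866500 had 2.12% in saline, 4.26% in OVA and 4.71% in DSE (limma adjusted p = 0.032 for DSE vs. saline).

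At exon 4 of Tet1 (chr10:62838001-62839000) the saline mice had 78.1%, 76.8% and 71.5%, the OVA mice 65.7%, 69.9% and 66.4%, and the DSE mice 62.1%, 63.5%, 62.0% and 55.7%. Upstream of Tet1 (chr10:62891001-62892000) the values were 75.9%, 74.8% and 75.2% in saline, 73.8%, 67.6% and 63.5% in OVA, and 60.7%, 63.3%, 60.2% and 61.1% in DSE. In both windows no groups overlapped and the order was saline, OVA, DSE from high to low. The DSE differences from saline were -14.8 and -13.9 points (limma adjusted p = 0.015 for each), those of OVA -8.22 and -7.04 points (limma adjusted p = 0.10 and 0.14), and those between DSE and OVA -6.62 and -6.87 points (limma adjusted p = 0.48 and 0.39). The upstream stretch with most CpGs is marked as a repeat over 173 of 250 bases. The window in intron 1 (chr10:62883001-62884000) was hypo methylated, with -12.8 points in OVA (-9.76 without OVA replicate 3) and -10.7 in DSE (-9.19 without DSE replicate 2).

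**Figure D4:**
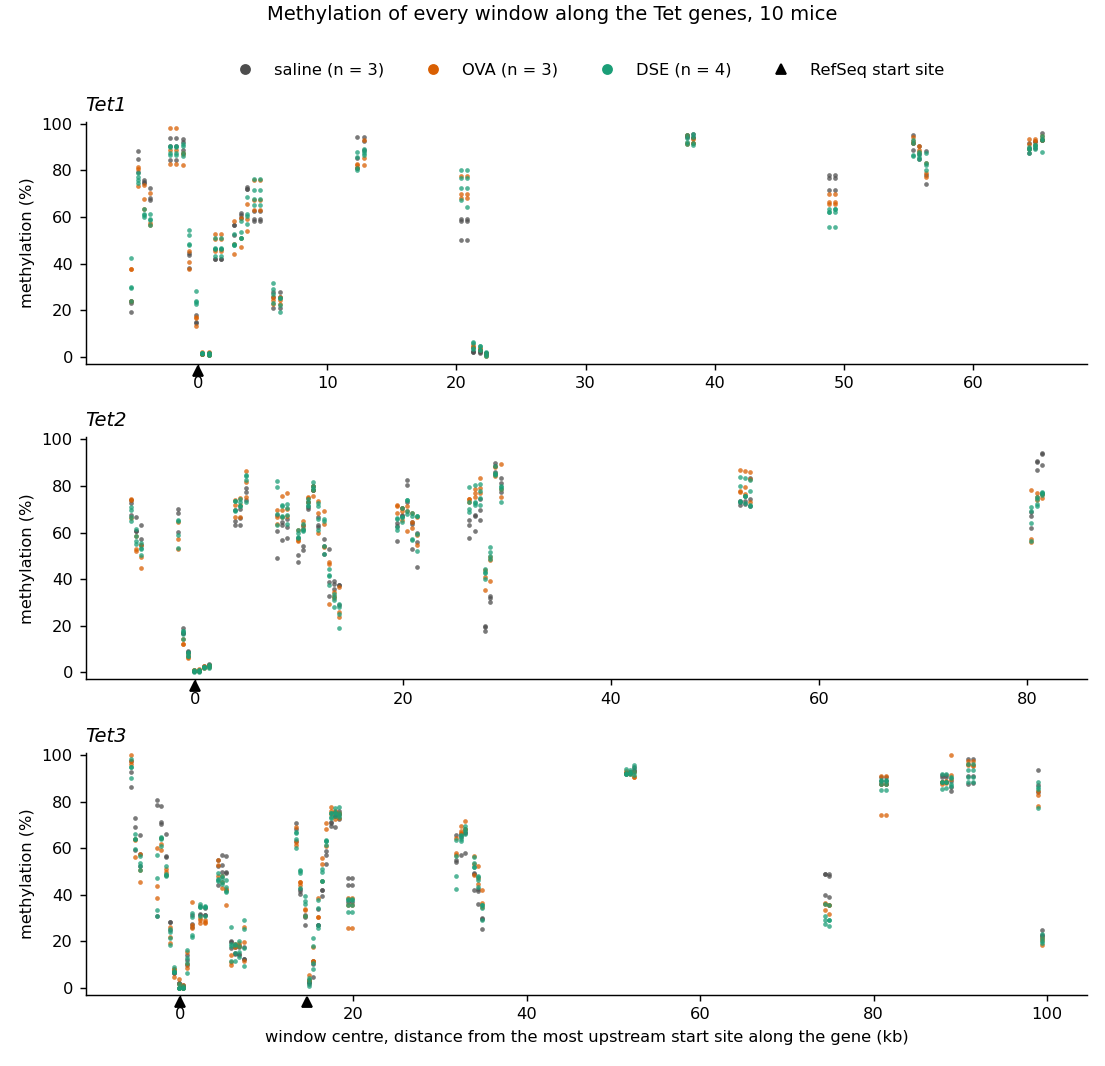
Methylation level (percent) of every window of Tet1, Tet2 and Tet3, one point per mouse, against the distance of the window centre from the most upstream start site along the gene (kb), with triangles at RefSeq start sites. Each start site lies in at least 1 window near the floor of the axis in all groups. The OVA and DSE points stand above the saline points in the Tet2 window at 27.9 kb (means of 40.1% and 42.4% against 18.9%).

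Tet3, which is known for the oxidation of the paternal genome in the zygote, had 5 regions, 4 of them lower in OVA than in saline. In intron 5 (chr6:83381001-83382000) the saline mice had 47.9%, 49.0% and 39.2%, the OVA mice 35.8%, 35.5% and 31.9%, and the DSE mice 29.1%, 29.2%, 35.5% and 26.4%. Both groups were below all saline mice. The difference was -10.9 points in OVA (limma adjusted p = 0.10; between -9.29 and -9.78, and so no DMR, without saline replicate 1, saline replicate 2 or OVA replicate 3) and -15.6 in DSE (limma adjusted p = 0.022). In intron 2 (chr6:83450501-83451500), 49.8%, 56.7% and 49.4% in saline compared with 42.1%, 42.3% and 35.5% in OVA, a difference of -11.6 points (-9.43 without saline replicate 2 and -9.55 without OVA replicate 3; limma adjusted p = 0.060), and with 41.0% to 46.5% in DSE.

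The largest Tet3 difference, upstream of the gene (chr6:83458501-83459500), rested on 26 to 66 calls per mouse. Saline replicate 1, at 31.0%, stood apart from the 78.4% and 80.5% of the other saline mice, and OVA (38.5%, 43.8% and 60.0%) and DSE (33.3%, 30.8%, 56.9% and 47.4%) overlapped it. The OVA difference of -19.0 points was -32.2 without saline replicate 1 and -10.2 without saline replicate 3, and ended as a call without saline replicate 2 or 3 or OVA replicate 1 or 2; that of DSE from saline, -22.8 points, became -35.9 without saline replicate 1 and -14.0 without saline replicate 3, and ended as a call without saline replicate 2 or 3 or DSE replicate 1. limma gave adjusted p = 0.46 and 0.27. The deeper neighbour in the same region (chr6:83458001-83459000, 302 to 457 calls) did not have this spread: 71.1%, 70.5% and 78.0% in saline, 59.4%, 64.5% and 61.8% in OVA and 61.0% to 65.0% in DSE, with differences of -11.5 and -10.1 points (limma adjusted p = 0.050 and 0.046). The remaining 2 regions lay in intron 3, with -10.2 points in OVA at chr6:83436001-83437000, where the groups overlapped, and 10.3 points at chr6:83439501-83440500. Both ended as calls when saline replicate 3 or OVA replicate 3 was left out, the former at -5.75 points without OVA replicate 3, and also without saline replicate 1 and without OVA replicate 2 respectively.

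Tdg held the only DMR between DSE and OVA in the 10 genes. In intron 1 (chr10:82634501-82635500, 91 to 384 calls, shown above), the saline mice had 43.6%, 48.6% and 48.8%, the OVA mice 41.8%, 50.3% and 51.6%, and the DSE mice 35.7%, 38.6%, 31.8% and 38.1%. The DSE mice were below all other mice, and the OVA and saline mice overlapped. DSE differed from OVA by -12.3 points (likelihood ratio adjusted p = 0.00063, limma adjusted p = 0.17; -10.6 without OVA replicate 2 and -11.0 without OVA replicate 3, both no longer called) and from saline by -11.2 points (limma adjusted p = 0.056; -9.75 without DSE replicate 3), and OVA differed from saline by 1.09 points (limma adjusted p = 0.91). An exact permutation test over mice gave p = 0.0571 for both DSE comparisons, the smallest that 3 against 4 mice allow, and this window is 1 of the 348 examined.

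The partner and reader genes carried 3 regions. In intron 2 of Uhrf1 (chr17:56306001-56307000), 50.6%, 50% and 43.1% in saline compared with 54.1%, 63.3% and 57.5% in OVA, 10.3 points higher (7.65 without saline replicate 3 and 8.23 without OVA replicate 2; limma adjusted p = 0.16), and with 46.2%, 58.4%, 57.1% and 56.5% in DSE, where the first mouse lay among the saline mice. In intron 1 of Mbd2 (chr18:70569501-70570500, centred 1708 bp after the start), the saline mice had 18.0%, 16.1% and 16.2%, the OVA mice 22.9%, 23.8% and 24.2%, and the DSE mice 29.1%, 26.3%, 27.3% and 27.5%. All 3 groups were separate, in the order saline, OVA, DSE. The differences from saline were 6.83 points in OVA (limma adjusted p = 0.037) and 10.9 in DSE (limma adjusted p = 0.0095), and the 4.03 points between DSE and OVA did not pass (limma adjusted p = 0.46). In the other Mbd2 region, also in intron 1 (chr18:70574001-70575000), DSE mice ranged from 37.1% to 57.5% and overlapped the saline mice; the difference of -10.1 points was -5.50 without DSE replicate 1 and not called without saline replicate 1 or 2 either (limma adjusted p = 0.23).

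The RefSeq start sites themselves were nearly free of methylation for most of the genes. Means in saline, OVA and DSE were 0.77%, 0.70% and 0.79% in the window of the Dnmt1 start sites at 20952623 and 20952979, 0.64%, 0.85% and 0.62% at Tet2, 0.68%, 0.89% and 0.67% at Tdg, 1.27%, 1.30% and 1.37% at Tet1, 0.74%, 0.77% and 0.81% at the downstream Uhrf1 start site and 0.82%, 0.42% and 0.20% at the upstream Tet3 start site. At these sites no group differed by as much as 1 point. The internal Dnmt3a start site, from which the short isoform Dnmt3a2 is transcribed, had 6.50%, 4.93% and 4.86%, and the upstream Uhrf1 start site 15.6%, 18.0% and 19.0%. The downstream Tet3 start site, which lies near a start of B230319C09Rik, had 2.16%, 4.15% and 2.51%, and the first window of the Dnmt3b start site 14.7%, 17.6% and 19.3%. The third Dnmt1 start site and the last of Dnmt3l had no window with enough calls, and the nearest, 1113 and 2335 bp away, had 27.0% and 90.7% in saline. Dnmt3l differed from the rest: its internal start sites at 78049842 and 78049959 lay in a window with 75.1%, 77.0% and 78.9%, and the window nearest to its distal start site, 214 bp away and also within 1000 bp of a start of Aire, had 8.48%, 10.2% and 12.2%. The 4 CpGs of the internal and 5 of the distal promoter, printed above, compare with 15 to 51 in those of Tet1, Dnmt3a and Tet2.

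Near the distal Dnmt3a start site only 29 to 174 calls were available, and overlapping windows at chr12:3805501-3806500 and chr12:3806001-3807000 held the same calls. These calls therefore lie in the stretch shared by both windows, which ends at 3806500. The Dnmt3a promoter printed above begins further downstream, at 3806730. The values below thus measure neither that sequence nor the start site itself. The saline mice had 5.26%, 7.50% and 3.45%, the OVA mice 2.30%, 1.17% and 0%, and the DSE mice 6.98%, 17.2%, 4.17% and 9.38%. The OVA mice were below all other mice, and saline and DSE overlapped. OVA differed from saline by -4.10 points (limma adjusted p = 0.038) and DSE from OVA by 7.10 points (limma adjusted p = 0.033), neither a DMR; these are the windows that limma passed in DSE vs. OVA.

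In promoter windows with an intermediate level in saline mice, the level of the DSE group was above that of the OVA group. These windows were picked by their saline level alone and not by their position, and some hold a start site. Of the 69 windows within 1000 bp of the genes' own start sites, 17 had 5% to 20% in saline, and DSE exceeded OVA in 17 of these 17 (71.8% of all such promoter windows), by a median of 1.71 points (1.01 over all). In the same 17 windows OVA exceeded saline in 5 (52.0% of all), with a median of -0.74 points, and DSE exceeded saline in 11 (73.8% of all). Neighbouring windows among them overlap, and no test of this count was made. In the 28 windows with under 5%, DSE exceeded OVA in 11 (66.2% of all), and differences lay between -1.57 and 4.79 points. In the 24 windows with 20% or more it did so in 11 (51.0% of all). One window at Tet1 (chr10:62887001-62888000) holds the start site and the Tet1 promoter printed above. In it the saline mice had 14.3%, 17.8% and 15.1%, the OVA mice 13.3%, 17.0% and 16.6%, and the DSE mice 23.4%, 23.9%, 28.0% and 22.6%. The DSE mice were above all others there, by 8.79 points over OVA (limma adjusted p = 0.086) and 8.62 over saline (limma adjusted p = 0.025), below the DMR threshold. The start window of Mbd2 had 5.24%, 3.46% and 5.31% in saline, 2.65%, 3.90% and 3.39% in OVA, and 7.66%, 6.47%, 12.01% and 6.93% in DSE, likewise with all DSE mice highest (4.79 points over OVA, limma adjusted p = 0.072).

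**Figure D5:**
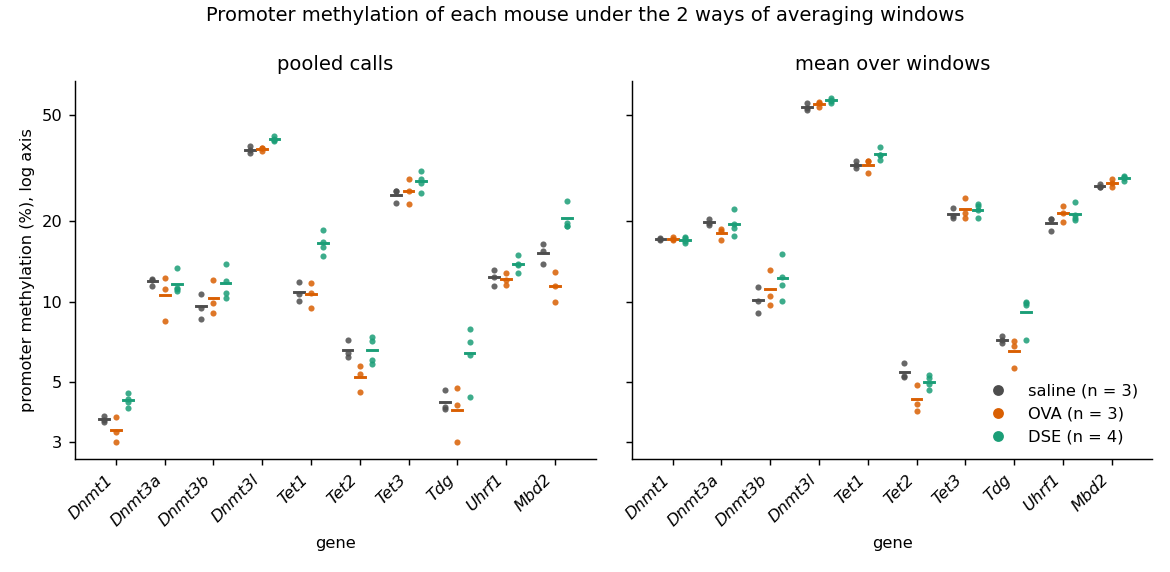
Methylation level (percent, log axis) of the promoter of each gene, one point per mouse and a line at the group mean, from the pooled calls of its promoter windows (left) and as the plain mean over those windows (right). With pooled calls the DSE mice of Tet1 (14.8% to 18.5%) and Mbd2 (19.1% to 23.9%) lie above all OVA mice (9.51% to 11.7% and 10.0% to 13.0%), and with the mean over windows the groups lie closer together.

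With the calls of all promoter windows of a gene pooled and M-values compared by limma over 16198 gene promoters, 4 of the 10 genes were higher in DSE than in OVA at an adjusted p below 0.05 (background 25.6%): Mbd2 (log2 difference 0.99, SE 0.14, adjusted p = 0.00057), Tet1 (0.73, SE 0.13, adjusted p = 0.0017), Tdg (0.73, SE 0.21, adjusted p = 0.026) and Dnmt1 (0.39, SE 0.10, adjusted p = 0.018). 0 were lower (background 0.438%), and the median over all promoters was itself 0.21 higher. The pooled levels in saline, OVA and DSE were 15.2%, 11.5% and 20.5% in Mbd2, 10.9%, 10.7% and 16.5% in Tet1, 4.23%, 3.96% and 6.43% in Tdg, and 3.64%, 3.31% and 4.29% in Dnmt1. With each window weighted equally instead of by its calls, 0 of 10 passed in limma (background 2.37% higher at the same adjusted p), and the Dnmt1 difference was -0.02. At an unadjusted limma p below 0.05 there were 3, a count for which no share over all promoters is given. The share of calls that fell in promoter windows was 39.7% to 40.1% in saline, 40.3% to 41.9% in OVA and 37.3% to 38.8% in DSE mice over all genes, and 40.1% to 40.9%, 39.8% to 42.5% and 36.9% to 38.5% in these 10; its part in the promoter differences was not tested. Without OVA replicate 1 or DSE replicate 3, Mbd2 and Tet1 passed and Dnmt1 and Tdg did not; Dnmt1 also failed without OVA replicate 2 and Tdg without DSE replicate 2.

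Against saline, limma passed the promoters of Mbd2 (log2 difference 0.51, adjusted p = 0.020) and Tet1 (0.70, adjusted p = 0.0040) in DSE (background 25.6%). Mbd2 had 0.44 and did not pass without saline replicate 1. With equal weights 0 of 10 passed (background 13.2% higher and 2.95% lower), and 4 had an unadjusted limma p below 0.05. In OVA vs. saline limma passed 0 of 10 promoters (background 2.81% higher and 2.61% lower). It also passed 0 of 10 bodies, that is the remaining windows of each gene and its flanks (background 9.7% and 4.24%). At an unadjusted limma p below 0.05 there were 2 promoters and 2 bodies. With equal weights, 0 of 10 promoters (background 3.95% higher and 2.23% lower) and 1 of 10 bodies, that of Dnmt3l, which was higher (background 8.18%), passed in OVA vs. saline. There 1 promoter had an unadjusted limma p below 0.05. The backgrounds are shares at an adjusted p below 0.05, and none is given for the unadjusted counts. Over the bodies, Dnmt3l was higher in DSE than in OVA (log2 difference 0.23, adjusted p = 0.044; background 7.26%) and than in saline (0.35, adjusted p = 0.0068; background 20.6%; 0.12 and not passing without flanks, adjusted p = 0.37, and 0.20 with equal weights, adjusted p = 0.033), and Dnmt3b lower in DSE than in saline (-0.21, adjusted p = 0.032; background 5.96%). In DSE vs. OVA 0 bodies were lower (background 3.26%), and in DSE vs. saline 0 promoters were lower (background 2.05%). The Dnmt3l body includes 3 windows at the starts of Aire and Icosl; its difference between DSE and OVA was lost without them, with equal weights (-0.01) and when any one mouse other than OVA replicate 3 was left out. The Dnmt3b difference was lost with equal weights (-0.09, adjusted p = 0.37) and without saline replicate 1 or 2 or DSE replicate 1, 3 or 4. The Dnmt3a body had 0.20 in DSE vs. saline and fell just short (limma adjusted p = 0.051). With equal weights it passed (0.18, limma adjusted p = 0.032; background 10.6%).

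The list of other genes of DNA methylation and its readers held 30 genes, all with windows, 629 in total. In OVA vs. saline 24 of their windows were hyper methylated DMRs (3.82%; 4.83% of all windows) and 19 hypo methylated (3.02%; 2.6% of all). In DSE vs. OVA there were 2 and 2 (0.318% each; 0.888% and 0.699% of all), and in DSE vs. saline 26 (4.13%; 5.02% of all) and 16 (2.54%; 3.09% of all). Median differences were 0.05, 0.17 and 0.12 points in the same order. The zinc finger reader Zbtb38 had 4 hyper and 2 hypo methylated windows in OVA, and its body as a whole was higher than in saline (log2 difference 0.23, limma adjusted p = 0.026; 0.08 with equal weights, adjusted p = 0.32). One hypo methylated window lay at a start site (chr9:96718001-96719000) and had 85.4%, 83.8% and 81.2% in saline, 70.6%, 65.3% and 68.1% in OVA and 65.96% to 69.5% in DSE. Both groups lay below all saline mice, by -15.6 and -15.8 points (limma adjusted p = 0.020 and 0.0082), whereas a body window (chr9:96727501-96728500) was higher by 10.6 points in OVA and 16.8 in DSE (limma adjusted p = 0.11 and 0.019). The related reader Zbtb4 was hyper methylated in a promoter window (chr11:69766501-69767500), with 11.2%, 11.8% and 14.99% in saline and 20.8%, 27.4% and 28.9% in OVA (13.1 points, limma adjusted p = 0.024), and 19.4% to 25.3% in DSE. The body of Ehmt2, which encodes a histone H3 lysine 9 methyltransferase, held DMRs in both directions. It had 80.1% in saline, 64.7% in OVA and 64.6% in DSE at chr17:34896001-34897000 (limma adjusted p = 0.020 and 0.0082), but was higher by 13.3 points in OVA and 18.1 in DSE at chr17:34914001-34915000 (limma adjusted p = 0.10 and 0.024), and the whole body differed by -0.08 on the log2 scale in OVA (limma adjusted p = 0.33).

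Between DSE and OVA the list had 2 hyper methylated windows that limma also passed. The promoter window of Zfp57, the factor that keeps methylation at imprinted loci (chr17:37001501-37002500), had 15.1%, 22.6% and 18.4% in saline, 14.3%, 21.9% and 17.5% in OVA and 32.5%, 33.6%, 33.0% and 32.2% in DSE (14.5 points, limma adjusted p = 0.048). That of the glycosylase Mbd4 (chr6:115854001-115855000) had 32.7%, 36.9% and 32.7% in saline, 30.1%, 30.0% and 31.7% in OVA and 43.9%, 45.7%, 41.5% and 43.0% in DSE (13.1 points, limma adjusted p = 0.036). In both, the DSE mice were above all other mice. Over pooled promoters limma passed 8 of 29 (27.6%; 25.6% of all promoters) as higher in DSE than in OVA and 0 as lower (0.438% of all). With equal weights it passed 1 as higher (3.45%; 2.37% of all), Mbd4. In DSE vs. saline it passed 5 (17.2%; 25.6% of all) as higher and 0 as lower (2.05% of all). With equal weights there were 4 higher (13.8%; 13.2% of all) and 1 lower (3.45%; 2.95% of all), near the shares over all promoters. In OVA vs. saline it passed 0 as higher (2.81% of all) and 1 as lower (3.45%; 2.61% of all). That 1 was Hells, the chromatin remodeler Lsh (log2 difference -0.64, limma adjusted p = 0.049). With equal weights Hells did not pass (-0.24, adjusted p = 0.12), and Zbtb4 was higher (0.36, adjusted p = 0.019) and Zbtb38 lower (-0.38, adjusted p = 0.035). Each is 3.45% of the 29, against 3.95% higher and 2.23% lower of all promoters.

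Markers of lung and of blood cells were read in the same libraries. The start-site windows of Nkx2-1, a lung epithelial regulator, were unmethylated (2.38%, 2.84% and 2.90% in saline, OVA and DSE), those of Hopx had 16.3%, 20.1% and 17.3%, and those of Sftpc and Sftpa1, for surfactant proteins, 67.6% and 63.8% in saline, near those of the liver gene Alb (71.7%) and the cardiac gene Myh6 (57.2%). Of the 5 leukocyte genes, 4 were lower in every OVA and every DSE mouse than in every saline mouse: Ptprc (62.8%, 46.5% and 44.0%), Vav1 (48.4%, 34.4% and 36.1%), Itgb2 (48.9%, 35.4% and 38.5%) and Lcp2 (62.6%, 40.4% and 44.2%). Coro1a went the other way and was higher in every OVA and every DSE mouse than in every saline mouse (5.72%, 8.89% and 8.27%). The mean over the list was 45.7%, 33.1% and 34.2%. Over all single windows, OVA mice lay wholly below saline mice in 9.03% and DSE mice in 7.86%. No share over the start sites of all genes is given. Of the epithelial list 0 of the 4 genes with windows were lower in this way, of the T cell genes 1 of 2 in OVA, of the B cell genes 0 of 1, of the eosinophil genes 0 of 2, and the endothelial gene with windows, Tie1, was lower in both groups (37.6%, 34.7% and 31.2%). The part of the leukocyte values in the OVA and DSE differences of the DMR regions above was not tested.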

How the data were processed

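The authors deposited a table of methylated cytosine counts (numCs), unmethylated counts (numTs) and coverage per 1000 bp window, stepped by 500 bp, for 10 lung libraries. Per their methods, paired-end reads were trimmed with Cutadapt 1.13, aligned to mm10 with Bismark 0.17.0 and summed over windows with methylKit 1.6.0; the submitters' processing notes name cutadapt 1.10, Bismark 0.19.0 and methylKit 1.0.0. A call can be counted in 2 overlapping windows.

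From these counts, the methylation level was 100 × numCs/coverage in windows with at least 20 calls in every mouse. Comparisons between groups used a logistic model on calls with a likelihood ratio test, with the study's limits for its methylKit comparison (adjusted p below 0.01 and at least 10 points) but without its minimum number of CpGs per region, and by limma 3.58.1 (R 4.3.3) on M-values, log2((methylated + 1)/(unmethylated + 1)), with all mice in 1 fit. p-values were Benjamini-Hochberg adjusted over all windows. Promoters were the windows within 1000 bp of a curated RefSeq start site, and bodies the other windows of the span with 5 kb flanks. Positions and sequences are from GRCm38.p6. Other steps used Python 3.11.15, numpy 2.4.6, scipy 1.17.1, pandas 2.3.3 and matplotlib 3.10.9. Tests were tried on simulated calls with a planted difference larger than nearly all of those described here, so recovery of smaller differences was not checked.

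The genes, the lists and the rules for naming windows (start sites, DMR regions with the 3 largest per gene in full, and the lowest and highest window outside promoters) were chosen with earlier results of these data known. The Herb group was read as DSE, since the study's methods describe no other herb. Alternatives covered the call minimum, tests, windows, weights, flanks, single mice and a replicate block.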

Additional observations from a re-analysis of the deposited data

Results flagged for a closer look

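Of 63 values examined over the 4 DSE mice, 8 had 1 mouse whose gap to the nearest other, as a share of the range, exceeded Dixon's critical value for a group of this size; chance alone gives about 1 in 20. The saline and OVA groups, with 3 mice each, were not examined. In intron 2 of Uhrf1 (chr17:56306001-56307000), DSE replicate 1 had 46.2% and the others 56.5% to 58.4% (share 0.846). DSE replicate 3 stood apart in the Mbd2 promoter, with 23.9% against 19.1% to 19.8% (0.863), and in the Dnmt3l body, with 53.3% against 51.2% to 51.4% (0.920). DSE replicate 2 stood apart in the Dnmt3a promoter, with 13.4% against 10.9% to 11.3% (0.855), and in the Tet3 body, with 64.7% against 63.8% to 63.9% (0.840). At start sites all such values were low. The Tet1 window at chr10:62886501-62887500 had 1.00% in DSE replicate 1 and 1.45% to 1.51% in the others (0.878), and the Tet3 windows at chr6:83455501-83456500 and chr6:83456001-83457000 had 0.784% in DSE replicate 2 and 1.63% in DSE replicate 4 with 0% in the others (1.0 and 1.0).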

How the results depend on the processing

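Of the 15 hyper and 13 hypo methylated windows in OVA vs. saline, an F test for overdispersion left 0 and 0, limma at an adjusted p below 0.01 0 and 0, limma at 0.05 with the 10-point threshold 3 and 3, a threshold of 20 points 2 and 0, and windows that do not overlap 9 and 6. Leaving out 1 mouse gave 14 to 22 and 6 to 17. In DSE vs. OVA the counts of 0 and 1 became 1 and 2 with a minimum of 10 calls; the hypo methylated window was lost with the F test (0), limma at either level (0 and 0), 20 points (0) and non-overlapping windows (0), and leaving out 1 mouse gave 0 to 2 of each. The 15 and 17 windows in DSE vs. saline became 0 and 0 with the F test, 2 and 2 with limma at 0.01, 9 hypo methylated with limma at 0.05, 2 and 1 at 20 points, 8 and 9 without overlap and 11 hypo methylated without flanks. The F test passed 0 windows in every comparison, both of the 348 and of all 421759, so this says nothing particular about these genes. Its unadjusted p was below 0.05 in 50, 25 and 81 of the 348 windows. No share over all windows is given for these counts.

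Pooling the calls of all 348 windows in place of the median gave differences of -0.15 points for OVA vs. saline, 3.08 for DSE vs. OVA and 2.93 for DSE vs. saline, against medians of 0.53, -0.04 and 0.55. The share of calls in promoter windows, lower in DSE, moved with this, and its part was not tested.

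Of the 4 promoters higher in DSE than in OVA, 2 passed with windows within 500 bp and 0 with equal weights (Dnmt1 -0.017), and 2 to 5 without 1 mouse of any group; of the 2 in DSE vs. saline, 0 passed with equal weights, and 1 to 3 without 1 mouse. For bodies in OVA vs. saline, 1 passed without flanks (Tet2), 1 with equal weights (Dnmt3l) and 1 without promoter windows of other genes (Dnmt3l), a setting chosen after seeing the data. The Dnmt3l body in DSE vs. OVA was lost (0) in those 3 settings (-0.012 with equal weights), with the compared mice alone (0) and without any one mouse but OVA replicate 3 (0 to 1). Leaving out 1 saline or DSE mouse gave 1 to 2 bodies in DSE vs. saline, and leaving out OVA replicate 1 or 3, which enter the shared spread, gave 3, with Dnmt3a added. The Dnmt3a body also passed there with a minimum of 50 calls, with the compared mice alone and with equal weights.

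Mice that share a replicate number did not deviate together (correlations of -0.027 to 0.078), so the numbers were not taken as pairs. A replicate block used only the replicate numbers found in every group, so DSE replicate 4 was left out and a change in counts can reflect either step. With it, OVA differed from saline in 15 and 10 windows, DSE from OVA in 0 and 1, and DSE from saline in 15 and 15. In the same order, 0, 4 and 2 promoters passed, and for DSE vs. OVA and DSE vs. saline 0 and 1 bodies.

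Single windows and genes kept their call in 603 settings and fell short in 236, and 2 reversed, as given. Depth limits windows with few calls, such as those upstream of Tet3 and near the distal Dnmt3a start site. With 3 or 4 mice per group, exact permutation tests could not go below p = 0.1 (3 against 3) or 0.0571 (3 against 4).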
